A study of Mus musculus with 18 samples.

Results

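High-fat diet (HFD) was compared with normal chow in skeletal muscle of wild-type mice that had received no compound. The comparison used the 3 HFD and the 3 chow libraries of the untreated wild-type groups, 6 of the 18 libraries of the series, and every gene of the deposited table. The mice had been on either diet for 10 weeks. The wider series concerns activation of the nuclear receptor NURR1 in muscle and its part in systemic energy balance. It also holds wild-type mice on each diet given AQ in the drinking water, and Nurr1 transgenic (Nurr1-mTg) mice with wild-type controls, both on HFD. AQ is not spelled out in the labels, and neither the muscle taken nor the age, strain, sex or fasting state of the mice is given in the sources used here. The AQ-treated pair of diets and the wild-type HFD controls of the transgenic mice share no library with the untreated pair, and values from them are given beside some of its results.

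Skeletal muscle burns both glucose and fatty acids, and the share of each shifts with what the blood supplies. Fatty acids enter through carriers such as CD36, are bound in the cytosol, are joined to coenzyme A, and cross into mitochondria on carnitine. There the beta-oxidation cycle shortens them by repeated rounds of dehydrogenation, hydration, a second dehydrogenation and thiolysis, and auxiliary enzymes move or remove the double bonds of unsaturated chains. Many genes of this route are targets of the PPAR family of nuclear receptors, for which fatty acids are ligands. Fat can also be stored in muscle, in lipid droplets within the fibres and in adipocytes between them.

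The 6 libraries held between 11730148 and 16082994 recovered reads, and 3 reads corresponded to 0.193 to 0.249 CPM (reads scaled to library size, as deposited). The 10 muscle-defining genes, among them Ckm, Acta1 and Myh4, summed to between 133810 and 175810 CPM in each library, as the tissue label says. Diet did not separate the libraries on the first principal component (33.8% of the variance), where the HFD libraries lay at -6.55, -20.6 and 5.17 and the chow libraries at -5.97, 6.29 and 21.7. On the second (21.4%), the HFD libraries lay at 4.43, 9.54 and 7.02 and the chow libraries at -21.9, -2.53 and 3.44. All HFD libraries were above all chow libraries there, and chow replicate 1 was the farthest from them. One chow library, replicate 1, was nearer to the HFD libraries than the other two chow libraries were in many genes of fat use, and the calls made without it are given after the fatty acid genes.

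Only a few genes passed the test for diet, and 3 of those that rose handle fatty acids. Of 12524 genes tested, 6 had a limma adjusted p under 0.05 (0.0479% of the genes tested), 5 higher on HFD (0.0399%) and 1 lower (0.00798%). The median log2 fold change over all genes was -0.0026, and 1193 genes (9.53%) had an unadjusted p under 0.05, 627 higher (5.01%) and 566 lower (4.52%). In whole tissue, a change in the number of cells of a type cannot be told apart from a change in RNA per cell. A p-value here measures the spread between mice as far as the labels call the libraries biological replicates. That spread is pooled over all 6 groups, AQ-treated and transgenic mice included. A gene therefore has the same SE in the untreated and the AQ-treated pair, and chow replicate 1 enters the p-values of both.

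Ech1 encodes an isomerase that moves double bonds of unsaturated fatty acids into the position beta-oxidation can use. Its level was 273, 222 and 208 CPM on chow and 386, 391 and 485 CPM on HFD. The groups did not overlap, and Ech1 rose by 0.84 ± 0.13 (SE), adjusted p = 0.0274 on the log2(CPM + 1) scale that is used for all fold changes here. Decr1 encodes the mitochondrial reductase that removes a double bond on the same side route, and it measured 204, 142 and 135 CPM on chow and 241, 269.9 and 276 CPM on HFD. It rose by 0.73 ± 0.12 (SE), adjusted p = 0.0344, with chow replicate 1 the nearest of the chow libraries to the HFD group. Dbi encodes the acyl-CoA binding protein, which carries activated fatty acids in the cytosol, and it measured 73.7, 67.1 and 56.8 CPM on chow and 97.4, 107 and 99.1 CPM on HFD. It rose by 0.62 ± 0.10 (SE), adjusted p = 0.0344. Ech1 lies on chromosome 7 from 28825217 to 28832247, Decr1 on chromosome 4 from 15917240 to 15945507 and Dbi on chromosome 1 from 120113280 to 120121078 (GRCm38).

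The other called genes are in none of the fatty acid lists. Tmem45b, a membrane protein gene on chromosome 9 from 31426196 to 31464462, measured 0.872, 0.626 and 1.16 CPM on chow and 4.84, 6.14 and 6.22 CPM on HFD. It rose by 1.84 ± 0.27 (SE), adjusted p = 0.014999, from chow levels near 1 CPM that all 3 HFD libraries exceeded. The non-coding gene 1500017E21Rik, annotated antisense to Hectd2 on chromosome 19 from 36614052 to 36705641, measured 6.34, 6.75 and 5.91 CPM on chow and 10.2, 12.2 and 12.8 CPM on HFD. It rose by 0.79 ± 0.11 (SE), adjusted p = 0.014999, with no overlap between the groups. The only called gene that fell was Plet1os, annotated antisense to Plet1 on chromosome 9 from 50488795 to 50507823, at 8.17, 9.81 and 8.28 CPM on chow and 3.94, 3.49 and 4.68 CPM on HFD (-0.96 ± 0.16 (SE), adjusted p = 0.0344). Use of strand in counting is not given in the sources used here, so reads of these antisense genes and of their partners cannot be told apart. Tmem45b also overlaps annotated neighbours on both strands.

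**Figure D1:**
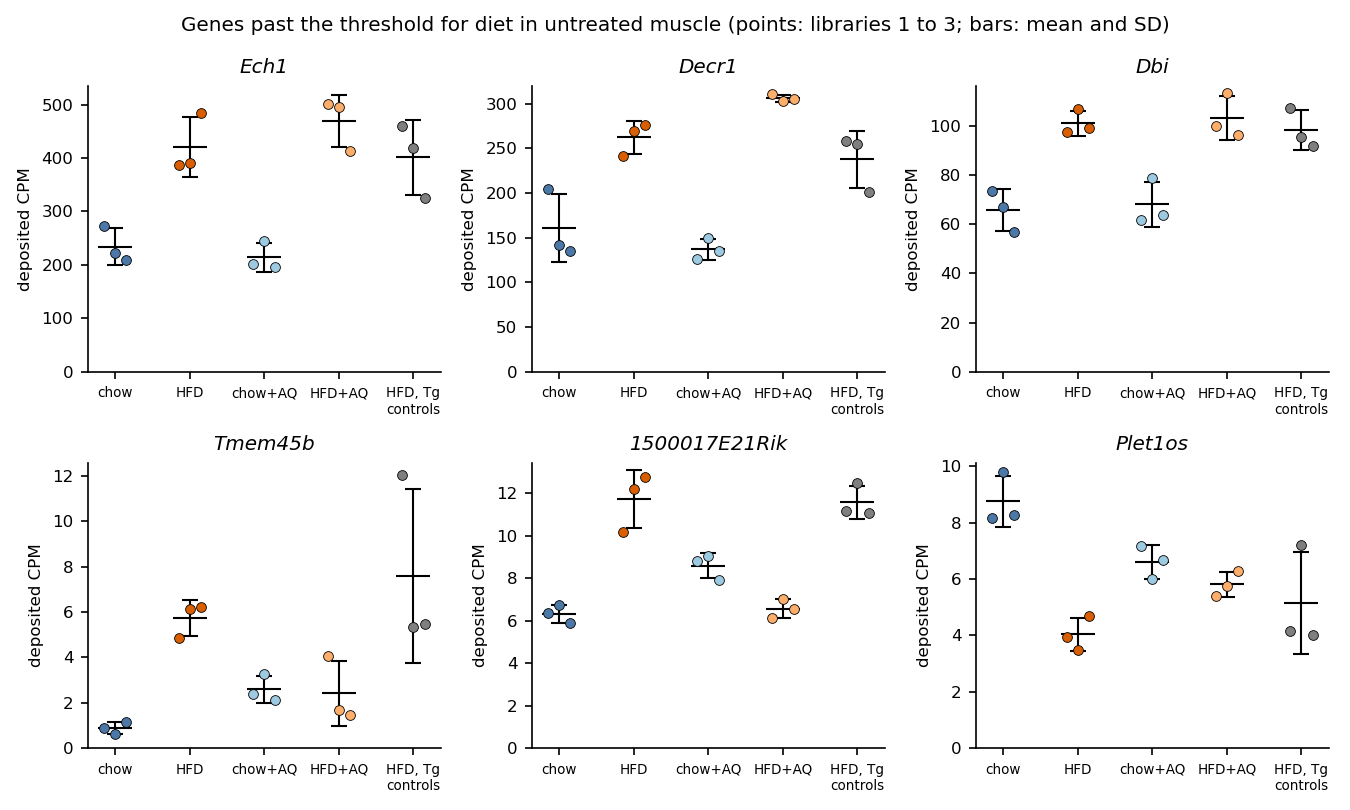
Deposited CPM (linear axes from 0) of the 6 genes past the threshold in 5 wild-type groups of 3 libraries each, where points are libraries and bars give mean and SD. Ech1, Decr1 and Dbi stand higher on HFD with and without AQ, while under AQ the diet groups overlap in Tmem45b and 1500017E21Rik lies lower on HFD. Tg controls are the wild-type HFD controls of the transgenic mice, which have no chow group.

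The AQ-treated mice gave a second, separate pair of diets in which the fatty acid genes could be tested. With AQ, Ech1 rose by 1.13 ± 0.13 (limma adjusted p = 0.000138), Decr1 by 1.16 ± 0.12 (adjusted p = 5.18e-05) and Dbi by 0.60 ± 0.10 (adjusted p = 0.00165). The diet effect did not differ between untreated and AQ-treated mice past the threshold for these genes (adjusted p = 0.517, 0.282 and 0.967 for the difference), and the differences were 0.29 ± 0.19, 0.43 ± 0.18 and -0.02 ± 0.14. Tmem45b measured 2.396, 3.28 and 2.12 CPM on chow with AQ and 4.08, 1.68 and 1.48 CPM on HFD with AQ, and its diet effect did differ (adjusted p = 0.0287). 1500017E21Rik measured 8.81, 9.06 and 7.91 CPM on chow with AQ and 6.12, 7.002 and 6.56 CPM on HFD with AQ, and its diet effect differed as well (adjusted p = 0.00786). Both genes were picked by their untreated values, which also enter this test, and that choice favours a difference. In the wild-type HFD controls of the transgenic mice, 1500017E21Rik measured 11.2, 12.5 and 11.1 CPM and Tmem45b 12.01, 5.32 and 5.45 CPM.

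The enzymes of the beta-oxidation cycle leaned the same way as Ech1 and Decr1 without passing the test. The promoters of 3 of its acyl-CoA dehydrogenases, which take the first step of the cycle on very long, medium and long chains, are shown because nuclear receptors of the PPAR type bind repeats of the motif AGGTCA. Each is the stretch of 250 bases before the annotated start, 5′ to 3′ on the gene's own strand, from RefSeq (GRCm38.p6), and capitals mark AGGTCA or its reverse complement.
Acadvl, chr11:70015429-70015678, minus strand: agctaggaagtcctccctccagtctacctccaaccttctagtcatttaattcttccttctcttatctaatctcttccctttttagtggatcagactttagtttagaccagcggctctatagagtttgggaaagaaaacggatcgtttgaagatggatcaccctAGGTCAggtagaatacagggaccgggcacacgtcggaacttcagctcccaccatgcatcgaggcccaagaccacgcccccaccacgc
Acadm, chr3:153944644-153944893, minus strand: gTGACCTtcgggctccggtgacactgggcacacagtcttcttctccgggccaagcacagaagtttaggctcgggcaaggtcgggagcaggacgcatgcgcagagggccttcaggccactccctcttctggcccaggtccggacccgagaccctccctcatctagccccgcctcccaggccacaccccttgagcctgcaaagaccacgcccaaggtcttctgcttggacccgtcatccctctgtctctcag
Acadl, chr1:66863310-66863559, minus strand: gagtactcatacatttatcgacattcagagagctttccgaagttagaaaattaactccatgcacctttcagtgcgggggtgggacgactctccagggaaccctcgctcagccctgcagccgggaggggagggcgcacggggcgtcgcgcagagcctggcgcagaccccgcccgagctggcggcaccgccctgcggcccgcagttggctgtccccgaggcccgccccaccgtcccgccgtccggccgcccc
Acadvl and Acadm hold the motif in this window and Acadl does not. In windows of 300 bases (250 before to 50 after the start, both strands searched), AGGTCA was found in 3 of the 11 core beta-oxidation genes with a promoter entry (27.3%: Acadm, Acadvl and Echs1), in 0 of 5 auxiliary enzyme genes and in 2 of 8 peroxisomal genes (25%), against 14.9% of the 9939 tested genes with an entry. It was also found in 4 of 12 heat shock genes (33.3%), and in 0 of the 4 genes called for diet that have an entry. Repeats of AGGTCA in the same orientation with 1 base between them, which contain the single motif, were found in 0 genes of these lists and in 0.0302% of all.

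Among the 12 core beta-oxidation genes, 11 had a log2 fold change above 0 (49.2% of all genes tested did), the median was 0.40, and 0 passed the test. The 3 whose groups did not overlap were all higher on HFD, where 6.32% of all genes tested were so. Hadhb encodes the thiolase subunit of the mitochondrial trifunctional protein and measured 59.3, 39.4 and 44.7 CPM on chow and 63.9, 71.2 and 79.7 CPM on HFD (0.59 ± 0.12 (SE), adjusted p = 0.0967). Acads, the short-chain dehydrogenase, measured 91.9, 85.1 and 77.1 CPM on chow and 111, 122 and 128 CPM on HFD (0.50 ± 0.11 (SE), adjusted p = 0.1102). Hadh, the dehydrogenase of the cycle's later oxidation step, measured 269.9, 209 and 198 CPM on chow and 275, 298 and 312 CPM on HFD (0.40 ± 0.10 (SE), adjusted p = 0.225).

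The other acyl-CoA dehydrogenases of the cycle overlapped between diets through chow replicate 1 alone. Acadl measured 494, 277 and 267 CPM on chow and 478, 585 and 544 CPM on HFD, so that chow replicate 1 lay above the lowest HFD library (0.68 ± 0.18 (SE), adjusted p = 0.225). Acadvl measured 553, 357 and 319.6 CPM on chow and 518, 637 and 551 CPM on HFD (0.51 ± 0.16 (SE), adjusted p = 0.347), and Acadm 459.9, 303 and 297 CPM on chow and 414, 471 and 439 CPM on HFD (0.35 ± 0.13 (SE), adjusted p = 0.398). Hadha, the other trifunctional subunit, measured 659, 436 and 395 CPM on chow and 602, 668 and 658 CPM on HFD, and the thiolase gene Acaa2 285, 181 and 173 CPM on chow and 271, 307 and 295 CPM on HFD. In both genes chow replicate 1 lay above the lowest HFD library and the other chow libraries lay below all HFD libraries. Echs1, the hydratase for short chains, was the one core gene below 0, at 129.9, 118 and 108 CPM on chow and 106, 115 and 116 CPM on HFD.

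Of the 6 auxiliary enzyme genes, 5 lay above 0 with a median of 0.35, and Ech1 and Decr1 were the 2 that passed. The isomerase genes Eci2 and Eci1 measured 73.1, 48.9 and 59.4 CPM on chow and 76.6, 89.3 and 73.2 CPM on HFD and 151, 101 and 98.9 CPM on chow and 136, 147 and 140.04 CPM on HFD (log2 fold changes 0.41 ± 0.13 and 0.29 ± 0.12), and neither passed with all libraries. Decr2, the peroxisomal counterpart of Decr1, stayed between 2.70 and 4.10 CPM in all 6 libraries.

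Uptake and activation genes were mixed. Of 13, 9 lay above 0 with a median of 0.20, and Dbi was the 1 that passed. Fabp3, the fatty acid binding protein of muscle fibres, measured 266, 106 and 108 CPM on chow and 306, 402 and 367 CPM on HFD (1.29 ± 0.29 (SE), adjusted p = 0.122). All HFD libraries were above all chow libraries, yet chow replicate 1 was far above the other chow libraries. The carrier gene Cd36 measured 653, 396 and 355 CPM on chow and 610.3, 825 and 630.5 CPM on HFD (0.60 ± 0.19 (SE), adjusted p = 0.347), and Fabp4, the binding protein of adipocytes and capillaries, 202, 147 and 136 CPM on chow and 240.2, 285 and 241 CPM on HFD (0.68 ± 0.17 (SE), adjusted p = 0.172). Lpl, which frees fatty acids from circulating lipoproteins, measured 1526, 921 and 824 CPM on chow and 849.7, 1109.8 and 949 CPM on HFD (-0.12 ± 0.16), and Acsl1, the main acyl-CoA synthetase of muscle, 709.7, 378 and 386 CPM on chow and 512, 732 and 562 CPM on HFD (0.34 ± 0.19).

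Of 8 carnitine shuttle genes, 7 lay above 0 with a median of 0.28, and 0 passed. Cpt2, which releases the fatty acid from carnitine inside mitochondria, measured 114, 83.9 and 75.6 CPM on chow and 114, 125 and 124 CPM on HFD (0.42 ± 0.12 (SE), adjusted p = 0.293). Cpt1a, the liver-type entry enzyme, measured 17.7, 12.5 and 21.3 CPM on chow and 26.8, 26.6 and 22.2 CPM on HFD (0.55 ± 0.19), and the muscle type Cpt1b 13.6, 10.5 and 8.41 CPM on chow and 11.9, 13.1 and 11.7 CPM on HFD (0.18 ± 0.16). Cpt1b shares its strand and position with the annotated gene Gm44502, so its reads are uncertain. Of 13 peroxisomal genes, 11 lay above 0 but the median was only 0.10. Pex11a, a factor in peroxisome division, measured 12.6, 10.1 and 9.63 CPM on chow and 13.9, 18.2 and 13.2 CPM on HFD (0.45 ± 0.14).

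**Figure D2:**
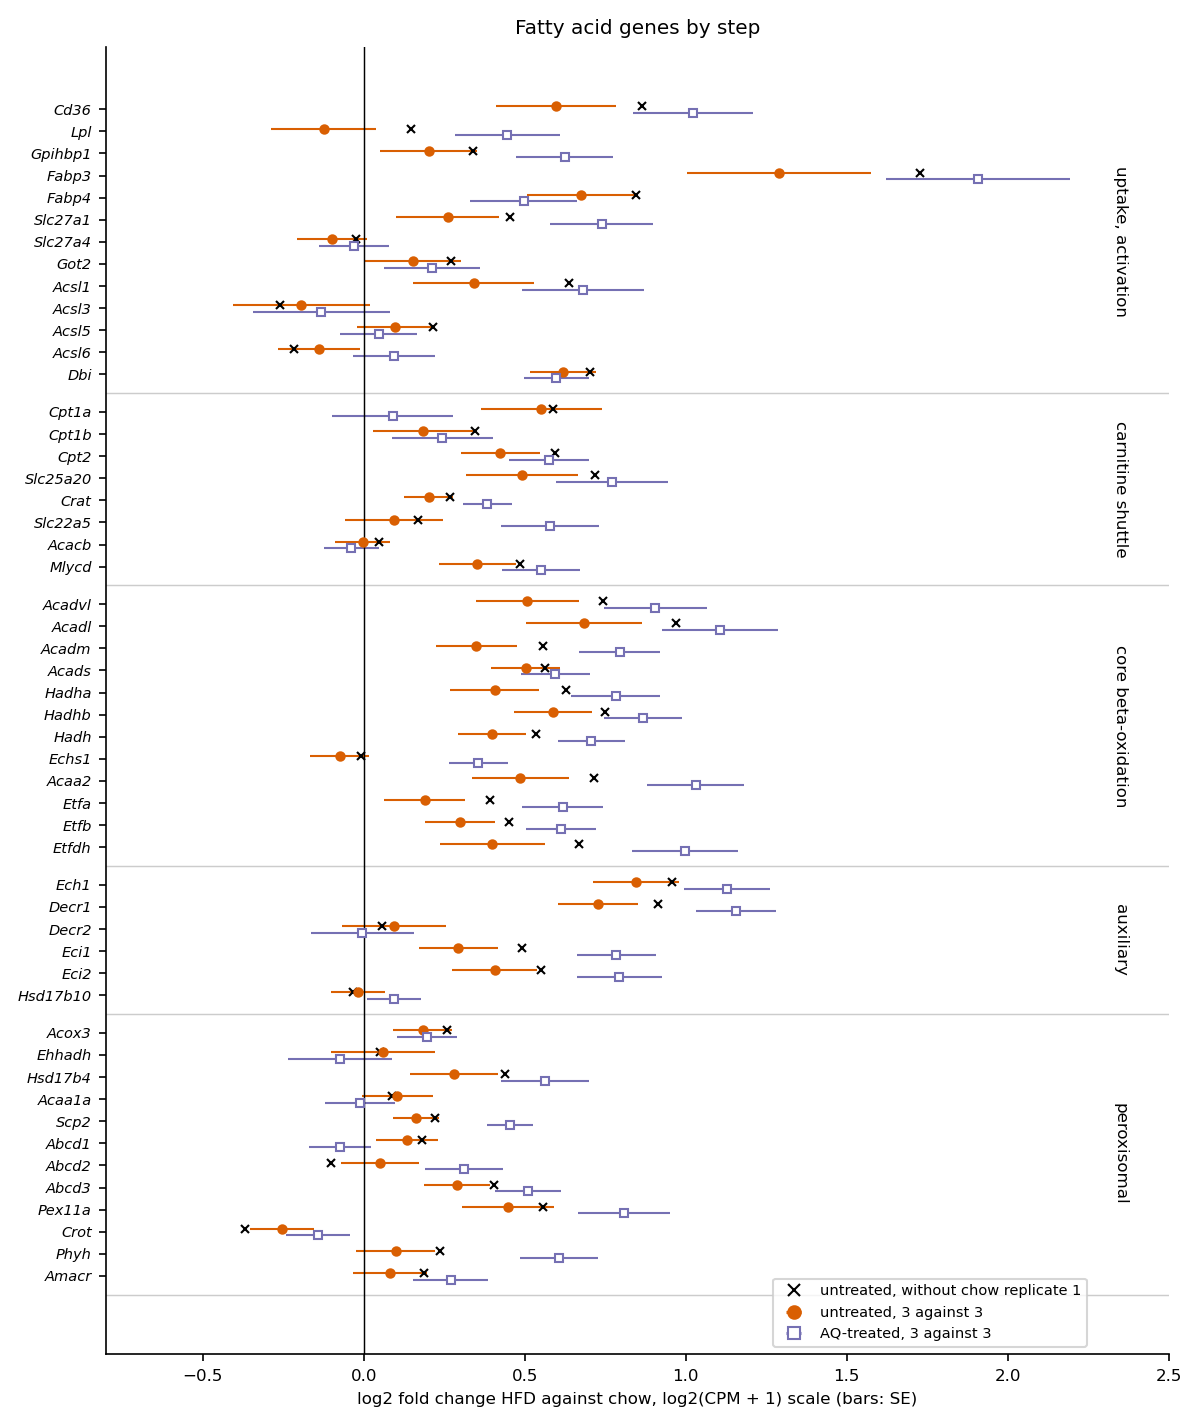
Log2 fold change of HFD against chow (log2(CPM + 1) scale, bars ± SE) for genes of 5 steps of fatty acid use, in untreated mice (filled circles), in untreated mice without chow replicate 1 (crosses) and in AQ-treated mice (open squares). In core beta-oxidation 11 of 12 untreated and 12 of 12 AQ-treated values lie right of 0.

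How many of these genes passed depended on chow replicate 1. It was the highest of the chow libraries in 12 of 12 core beta-oxidation genes, and it reached or exceeded the lowest HFD library in 9 of them, against 1 for each of the other chow libraries. The level of the core list, as the mean over its genes of log2(CPM + 1) minus the gene's mean over the 6 libraries, was 0.09, 0.29 and 0.21 in the HFD libraries and 0.17, -0.34 and -0.43 in the chow libraries. Without chow replicate 1, 40 genes passed, 37 higher on HFD (0.295% of genes tested) and 3 lower (0.024%), and the 6 genes called with all libraries were among them. The median of the core list was then 0.60, that of the uptake list 0.34, of the carnitine list 0.42, of the auxiliary list 0.52, of the peroxisomal list 0.19 and of the lipid overload list 1.02. Of the 37, 19 belonged to the 77 tested genes of the uptake, carnitine, core, auxiliary, peroxisomal, lipid overload and droplet lists, which is 51.4% of the 37 and 24.7% of the lists. These lists hold 0.615% of all genes tested. In 35 of the 37, chow replicate 1 was above both other chow libraries, as the choice of that library favours. Chow replicate 1 was singled out because it lay near the HFD libraries in these same genes. That choice favours small p-values in them, so the calls without it are a description and not separate support. With chow replicate 2 or chow replicate 3 left out instead, 0 genes passed. Of the core genes, 9 passed in this limma fit. Their log2 fold changes were 0.97 (adjusted p = 0.00381) in Acadl, 0.75 (adjusted p = 0.00381) in Hadhb, 0.63 (adjusted p = 0.00827) in Hadha, 0.56 (adjusted p = 0.00875) in Acadm, 0.71 (adjusted p = 0.0106) in Acaa2, 0.74 (adjusted p = 0.0121) in Acadvl and 0.53 (adjusted p = 0.0142) in Hadh, and the electron transfer genes Etfb and Etfdh were the others. Acads missed the threshold, at 0.56 (adjusted p = 0.051). Outside the core, Fabp3 had 1.73 (adjusted p = 0.00375), Cd36 0.86 (adjusted p = 0.0167), Fabp4 0.85 (adjusted p = 0.0337), Cpt2 0.60 (adjusted p = 0.0159) and Eci1 0.49 (adjusted p = 0.0191).

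The same library stood apart in genes outside fat use. Arntl, the clock gene also called Bmal1, measured 29.3, 17.5 and 7.83 CPM on chow and 11.8, 8.38 and 8.69 CPM on HFD, and Per2, a repressor of the same clock, 14.1, 36.2 and 46.3 CPM on chow and 35.4, 47.8 and 42.9 CPM on HFD. The level of the 19 core clock genes was -0.35 in chow replicate 1 and between -0.03 and 0.14 in the other 5 libraries. That list holds activators and repressors, whose values can cancel in a mean. Without chow replicate 1 the median of the clock list went from 0.08 to -0.11, that of the fast fibre list from 0.01 to -0.18, of the glycogen list from -0.08 to -0.21 and of the ketone list from 0.10 to 0.28. In the AQ-treated pair these 2 clock genes differed between the diets. Arntl measured 36.1, 36.9 and 45.8 CPM on chow and 5.29, 7.70 and 6.93 CPM on HFD (-2.41 ± 0.28 (SE), limma adjusted p = 0.000112). Per2 measured 15.01, 10.3 and 8.79 CPM on chow and 49.8, 52.2 and 49.5 CPM on HFD (2.09 ± 0.30 (SE), limma adjusted p = 0.000455). In the wild-type HFD controls of the transgenic mice, Arntl measured 27.7, 28.8 and 24.1 CPM and Per2 9.25, 13.02 and 17.6 CPM. Arntl thus lay above, and Per2 below, every HFD library of both pairs. The HFD groups therefore did not share a level of these clock genes. The part of these clock differences in the fatty acid values of either pair was not tested.

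**Figure D3:**
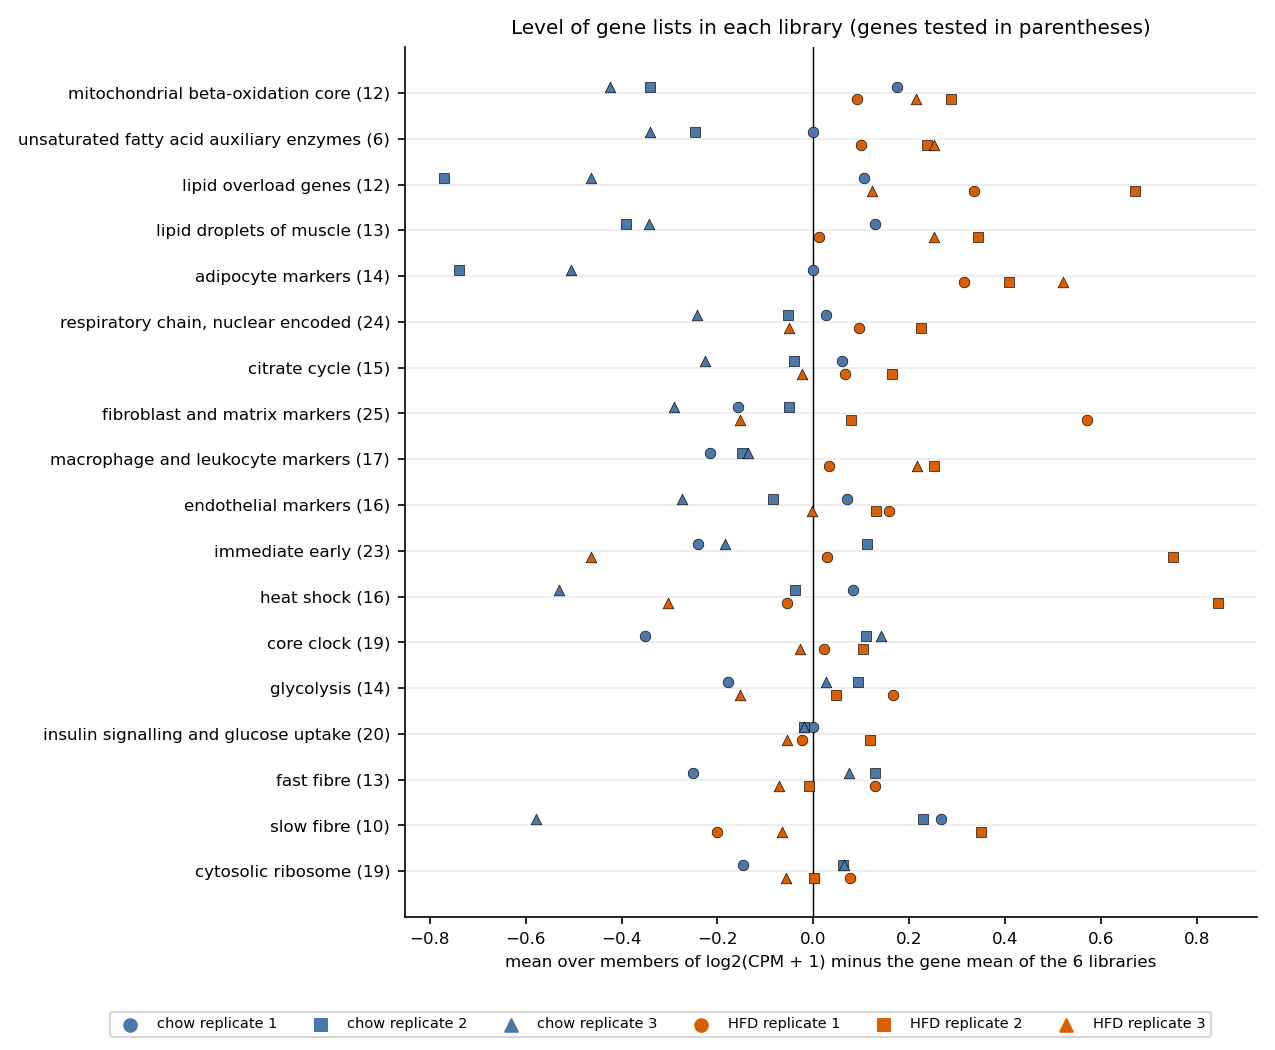
Level of 18 gene lists in each of the 6 libraries (mean over the list's tested genes of log2(CPM + 1) minus the gene's mean over the 6 libraries). Chow replicate 1 (blue circle) lies among the HFD libraries in core beta-oxidation at 0.17, and HFD replicate 2 (orange square) stands alone in heat shock at 0.845.

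The AQ-treated pair, whose fold changes do not draw on chow replicate 1, gave higher medians in the 5 lists of the route. They were 0.79 in the core list against 0.40 without AQ, 0.79 against 0.35 in the auxiliary list, 0.47 against 0.28 in the carnitine list, 0.50 against 0.20 in the uptake list and 0.27 against 0.10 in the peroxisomal list, and the differences between the medians were not tested. Single genes went the other way, among them Cpt1a at 0.09 ± 0.19 with AQ against 0.55 ± 0.19 and Fabp4 at 0.50 ± 0.17 against 0.68 ± 0.17. The medians of the lipid overload and droplet lists were lower with AQ, at 0.37 against 0.76 and 0.27 against 0.32. All 12 core beta-oxidation genes lay above 0 there, while 49.6% of all genes did and 10.6% of all genes passed the test in that pair. Acadl had a fold change of 1.11 ± 0.18 (limma adjusted p = 0.00119), Hadhb of 0.87 ± 0.12 (adjusted p = 0.000323) and Fabp3 of 1.91 ± 0.29 (adjusted p = 0.000609). None of the differences between the diet effects of untreated and AQ-treated mice passed the threshold in these genes (adjusted p = 0.470, 0.472 and 0.512), with differences of 0.42 ± 0.25, 0.28 ± 0.17 and 0.62 ± 0.40.

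Genes that muscle raises when fatty acids are in excess all lay above 0 but spread widely between libraries. This held for 12 of 12 lipid overload genes, with a median of 0.76, and 0 passed. Angptl4, a secreted inhibitor of lipoprotein lipase, measured 5.47, 2.02 and 3.08 CPM on chow and 16.5, 16.9 and 12.03 CPM on HFD (1.89 ± 0.48 (SE), adjusted p = 0.218), with no overlap. Pdk4, the kinase that closes the entry of glucose carbon into the citrate cycle, measured 1679, 524 and 639 CPM on chow and 1709, 3060.1 and 1041 CPM on HFD (1.09 ± 0.42 (SE), adjusted p = 0.425). The chow replicate 1 value of Pdk4 was almost equal to HFD replicate 1 and above HFD replicate 3, and its value of the uncoupling protein gene Ucp3 was also above HFD replicate 3, at 267, 111 and 151 CPM on chow and 355, 452 and 169.8 CPM on HFD (0.87 ± 0.33). The thioesterase gene Acot2 measured 22.2, 6.68 and 11.04 CPM on chow and 19.4, 36.4 and 26.7 CPM on HFD (1.10 ± 0.36).

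Of 13 lipid droplet genes, 11 lay above 0 with a median of 0.32, 5 did not overlap, all higher on HFD (6.32% of all genes tested were so), and 0 passed. Plin5, the droplet coat protein of oxidative muscle, measured 53.04, 19.2 and 20.1 CPM on chow and 48.1, 73.95 and 52.9 CPM on HFD (1.03 ± 0.31 (SE), adjusted p = 0.311), and without chow replicate 1 its fold change was 1.498 (adjusted p = 0.00904). Plin2, the coat protein of most cells, measured 28.1, 30.4 and 26.1 CPM on chow and 31.5, 32.4 and 42.4 CPM on HFD (0.31 ± 0.14). The lipase gene Mgll measured 90.5, 77.2 and 53.998 CPM on chow and 117, 110.3 and 98.5 CPM on HFD (0.58 ± 0.16). Of 5 genes of ketone body use, 4 lay above 0 with a median of 0.10, and 0 passed. Acat1, an acetoacetyl-CoA thiolase, measured 338, 288 and 269 CPM on chow and 321, 367 and 359.8 CPM on HFD (0.23 ± 0.08).

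The regulators of these genes showed no common direction. Among 20 genes of the PPAR, PGC-1 and ERR regulators, 11 lay above 0, the median was 0.02 and 0 passed. Ppargc1a, the coactivator of mitochondrial growth, measured 88.95, 115 and 58.7 CPM on chow and 138, 82.8 and 50 CPM on HFD (-0.02 ± 0.26), with wide spread inside both groups. The 1 member whose groups did not overlap was Nrf1, an activator of respiratory chain genes, at 13.95, 18.5 and 16.2 CPM on chow and 12.6, 11.4 and 12.4 CPM on HFD (-0.38 ± 0.11 (SE), adjusted p = 0.258), lower on HFD. Such a count of 1 in 20 is near the share of all genes tested that were so (6.1%).

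Respiratory chain and citrate cycle genes lay slightly above 0 almost without exception, by amounts that passed in no single gene. All 24 nuclear-encoded respiratory chain genes had a fold change above 0, between 0.10 and 0.32, with a median of 0.17, and 0 passed. Cox5b, a cytochrome oxidase subunit, measured 74.4, 69.4 and 65.5 CPM on chow and 87.2, 95.04 and 80.3 CPM on HFD (0.32 ± 0.10 (SE), adjusted p = 0.347). Of 15 citrate cycle genes, 14 lay above 0 with a median of 0.18, 6 did not overlap, all higher on HFD (6.32% of all genes tested were so), and 0 passed. Sucla2, a succinyl-CoA ligase subunit, measured 583, 569 and 535 CPM on chow and 674, 665 and 622 CPM on HFD (0.22 ± 0.07 (SE), adjusted p = 0.3501). The level of the respiratory chain list was 0.10, 0.22 and -0.05 in the HFD libraries and 0.03, -0.05 and -0.24 in the chow libraries. In the wild-type HFD controls of the transgenic mice it was -0.21, -0.10 and -0.07. The citrate cycle list stood at 0.07, 0.16 and -0.02 on HFD, and at 0.06, -0.04 and -0.23 on chow. In those controls it stood at -0.10, -0.05 and -0.02. With AQ the medians were 0.40 and 0.32. Members of such a list move together within a library, so the count of members above 0 is not a count of independent observations. Of 21 mitochondrial ribosome genes, 17 lay above 0 with a median of 0.05.

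Glucose handling showed no common direction. Of 14 glycolysis genes 7 lay above 0 (median 0.00), of 14 glycogen genes 5 (median -0.08) and of 20 insulin signalling and glucose uptake genes 7 (median -0.03), and 0 passed. The glycolysis gene Gapdh had only 2.85 to 7.05 CPM in the 6 libraries, where Pfkm had 4141 to 5355 CPM. Its reads are therefore uncertain, and its fold change of 0.40 was the highest of that list. Slc2a4, the insulin-regulated glucose transporter GLUT4, measured 747, 742 and 759.8 CPM on chow and 625, 668 and 568 CPM on HFD (-0.28 ± 0.11 (SE), adjusted p = 0.457), so all 3 HFD libraries lay below the narrow chow range without passing. Akt2, the kinase that relays insulin to GLUT4, measured 117, 124 and 131 CPM on chow and 110.1, 107 and 115 CPM on HFD (-0.16 ± 0.06). Tbc1d1, a brake on GLUT4 traffic, measured 73.2, 84.2 and 98.6 CPM on chow and 102, 195 and 158 CPM on HFD (0.79 ± 0.18 (SE), adjusted p = 0.152), higher in every HFD library.

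Fat synthesis was represented by a single outstanding gene. Scd1, the desaturase that makes monounsaturated fatty acids, measured 107, 105 and 117 CPM on chow and 255, 227 and 226 CPM on HFD, with no overlap and a fold of means of 2.15, and missed the threshold (1.10 ± 0.20 (SE), adjusted p = 0.06903). Of 15 lipogenesis genes, 9 lay above 0 and the median was 0.03. Srebf1, a main activator of these genes, measured 58.7, 120.3 and 87.2 CPM on chow and 70.3, 42.2 and 75.3 CPM on HFD (-0.48 ± 0.30). With AQ, Scd1 measured 199.6, 211 and 222 CPM on chow and 186, 99.01 and 150.03 CPM on HFD, and its diet effect differed from that of untreated mice (adjusted p = 0.0223). Scd1 was picked by its untreated values, which enter that test too. Of 18 cholesterol genes, 4 lay above 0 with a median of -0.06, and 3 did not overlap, all lower on HFD (6.1% of all genes tested were so). Mvk, mevalonate kinase, measured 7.69, 8.63 and 9.95 CPM on chow and 6.92, 5.48 and 6.88 CPM on HFD (-0.39 ± 0.12).

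Genes that break down branched-chain amino acids were more often below 0, at 12 of 18, with a median of -0.04. Of the 6 whose groups did not overlap, 5 were lower on HFD (6.1% of all genes tested were so) and 1 was higher (6.32% were so), and 0 passed. Acadsb, a branched-chain acyl-CoA dehydrogenase, measured 151, 136 and 138 CPM on chow and 117, 107 and 114 CPM on HFD (-0.33 ± 0.09 (SE), adjusted p = 0.225). Ppm1k, the phosphatase that switches on the pathway's rate-setting enzyme complex, measured 28.4, 22.4 and 21.7 CPM on chow and 17.5, 17.02 and 20.2 CPM on HFD (-0.38 ± 0.14), and Ivd, isovaleryl-CoA dehydrogenase, 137, 147 and 142 CPM on chow and 119, 112 and 123 CPM on HFD (-0.26 ± 0.11). With AQ the median of the list was 0.13 and 12 of 18 lay above 0.

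Adipocyte transcripts had some of the largest fold changes among the lists, and 0 of 14 passed. Lep, the adipocyte hormone leptin, measured 6.26, 2.16 and 2.25 CPM on chow and 11.1, 24.5 and 54.8 CPM on HFD (2.62 ± 0.60 (SE), adjusted p = 0.152), with no overlap and a fold of means of 8.48. Adipoq, adiponectin, measured 15.6, 6.05 and 8.73 CPM on chow and 25.03, 25.6 and 31.9 CPM on HFD (1.44 ± 0.37 (SE), adjusted p = 0.223). Plin1, the droplet coat protein of adipocytes, measured 5.87, 3.06 and 2.63 CPM on chow and 8.78, 8.63 and 14.2 CPM on HFD (1.27 ± 0.33), Cidec, a droplet fusion protein, 14.2, 5.22 and 7.705 CPM on chow and 17.6, 27.5 and 33.96 CPM on HFD (1.497 ± 0.43), and Retn, resistin, 2.54, 1.81 and 2.38 CPM on chow and 7.399, 5.73 and 4.08 CPM on HFD (1.03 ± 0.27). Of 14 adipocyte genes, 13 lay above 0 with a median of 0.76, and 9 did not overlap, all higher on HFD (6.32% of all genes tested were so). The exception was Cfd, adipsin, at 58.9, 24.2 and 43.9 CPM on chow and 39.8, 32.3 and 20.3 CPM on HFD (-0.41 ± 0.32).

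The defining adipocyte markers in the table, 6 of 7 with Adrb3 without a row, were above 0 CPM in all 6 libraries and summed to between 42.5 and 103 CPM on chow and between 110 and 159 CPM on HFD. The summed level of all 14 adipocyte genes, most of it Car3, which muscle also expresses, lay between 2201 and 3254 CPM on chow and between 2854 and 3940 CPM on HFD. Chow replicate 1 was the highest chow library in 13 of the 14, as it was in the fatty acid lists. Scd1, Fabp4, Cidec, Lipe and Angptl4 are also genes of adipocytes, and the part of adipocyte content in their values was not tested. Tmem45b, Prkar2b and Mest were highest in the same library as Adipoq within each wild-type HFD group. That was replicate 3 without AQ, and replicate 1 with AQ and in the transgenic controls. On chow with AQ their highest library was not that of Adipoq. The part of adipocyte content in these genes was not tested either. In the AQ-treated pair the adipocyte list had a median of -0.23 and 6 of 14 genes above 0. The brown adipocyte markers Ucp1, Elovl3 and Otop1 had no row in the table, and of the 5 brown adipocyte genes tested 4 lay above 0 (median 0.17).

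**Figure D4:**
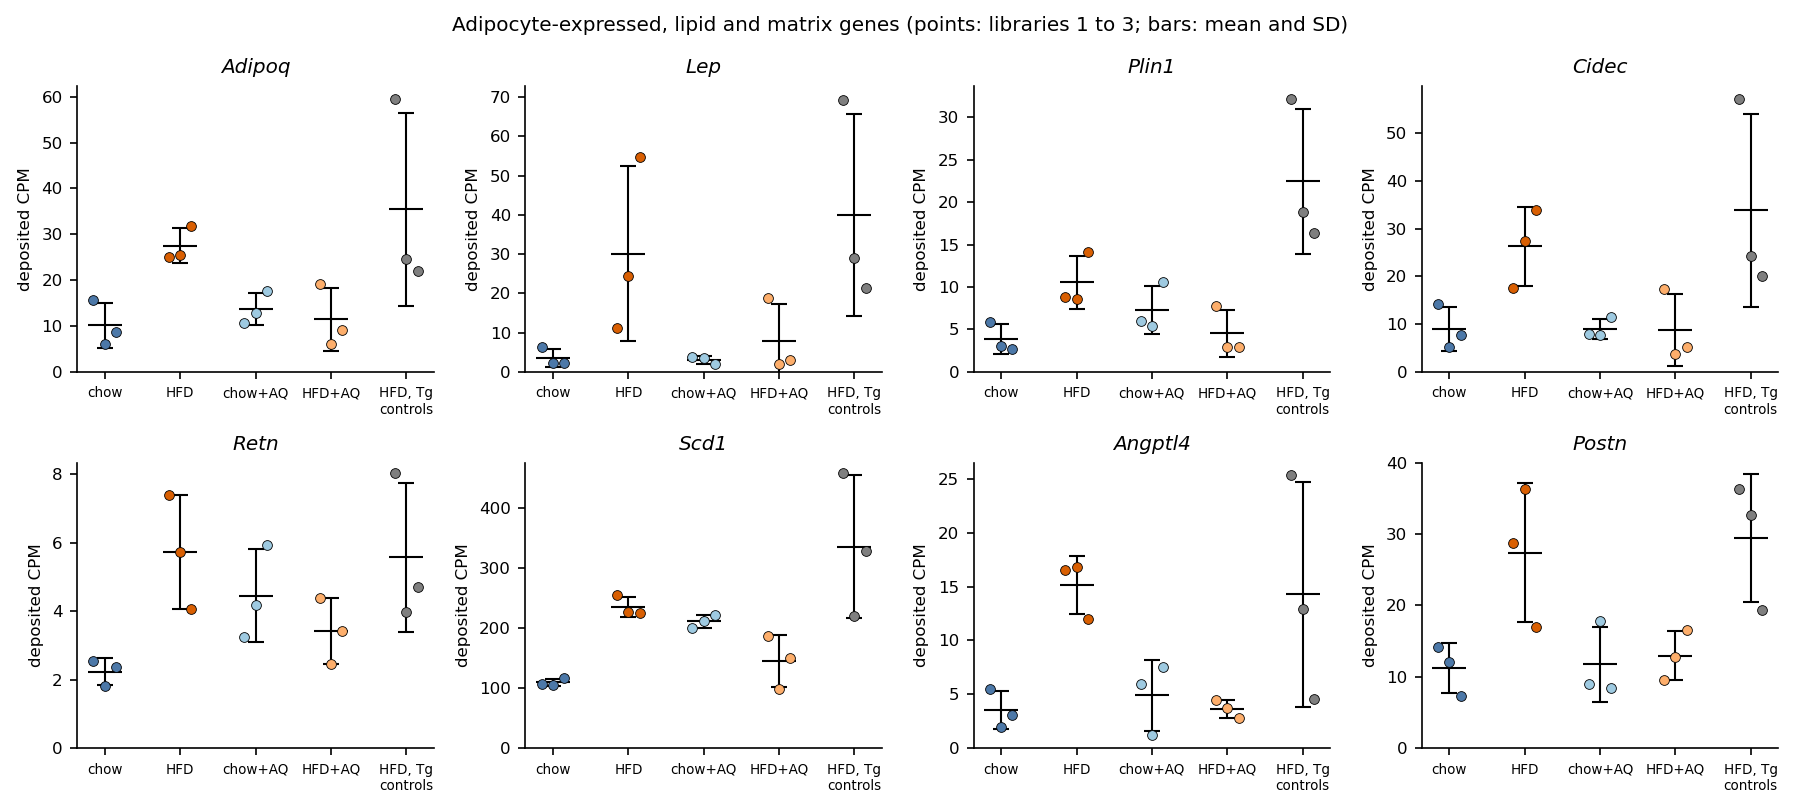
Deposited CPM (linear axes from 0) of 8 genes of adipocytes, lipid handling and matrix in 5 wild-type groups of 3 libraries each, where points are libraries and bars give mean and SD. In Adipoq the untreated HFD libraries lie at 25.03, 25.6 and 31.9 CPM and the chow libraries at 15.6, 6.05 and 8.73 CPM, and the HFD controls of the transgenic mice (Tg controls) spread most.

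Leukocyte markers were low but ordered by diet. All 17 lay above 0 with a median of 0.31, and 12 did not overlap, all higher on HFD (6.32% of all genes tested were so), while 0 passed. With AQ the median was -0.32 and 3 of 17 lay above 0. Their summed level was 171, 172 and 172 CPM on chow and 202, 238 and 219 CPM on HFD, and none of the 5 defining markers was at 0 in any library. Cd68, a macrophage lysosomal protein, measured 4.202, 3.27 and 2.83 CPM on chow and 4.98, 7.97 and 5.68 CPM on HFD (0.69 ± 0.30 (SE), adjusted p = 0.472), and Ccr2, the receptor that draws monocytes into tissue, 3.96, 3.896 and 3.85 CPM on chow and 5.53, 7.802 and 6.68 CPM on HFD (0.64 ± 0.22 (SE), adjusted p = 0.3601). Of 8 class II antigen presentation genes 6 lay above 0 (median 0.29), and with AQ 1 of 8 (median -0.42). Of 11 complement genes 10 lay above 0 (median 0.21, and 0.33 without chow replicate 1), with 6 not overlapping, all higher on HFD (6.32% of all genes tested were so). With AQ 1 of 11 lay above 0 (median -0.40). C4b, a complement component, measured 11.7, 7.17 and 9.25 CPM on chow and 16.04, 18.4 and 26.003 CPM on HFD (1.02 ± 0.25 (SE), adjusted p = 0.166), and Cfb, complement factor B, 4.598, 4.24 and 4.43 CPM on chow and 7.54, 9.63 and 12.4 CPM on HFD (0.98 ± 0.26 (SE), adjusted p = 0.225).

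Matrix and fibroblast genes lay above 0 in 25 of 25 cases with a median of 0.29, and 0 passed. Postn, periostin, measured 14.2, 12.1 and 7.32 CPM on chow and 28.7, 36.4 and 17.05 CPM on HFD (1.20 ± 0.32 (SE), adjusted p = 0.225), and Sparc, a collagen-binding matrix protein, 388, 386 and 347 CPM on chow and 765, 496 and 432 CPM on HFD (0.55 ± 0.21). The summed level of the 25 genes was 5549, 3691 and 3157 CPM in the HFD libraries against 3069, 3427 and 2954 CPM in the chow libraries, so HFD replicate 1 stood apart, and without it the median was 0.10. With AQ the median was -0.69 and 5 of 25 lay above 0. The diet effect of 9 of these 25 genes differed between untreated and AQ-treated mice, against 0.711% of all genes tested. One of them, Fbn1, the microfibril protein fibrillin, was picked after its values were seen and measured 80.7, 85.99 and 59.97 CPM on chow and 124, 73.6 and 63.97 CPM on HFD, with 113, 142 and 129 CPM on chow and 39.8, 47.8 and 44 CPM on HFD under AQ. Over the 18 alternatives between 3 and 13 of the 25 passed, with 3 when HFD replicate 1 was left out or values were scaled to the library total, and 4 without chow replicate 3, with the replicate block, with the GC trend of each library removed or without the variance trend.

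Other resident cells gave small values. Of 16 endothelial genes 15 lay above 0 (median 0.19), of 9 smooth muscle and pericyte genes 7 (0.21), of 11 Schwann cell genes 7 (0.05) and of 11 satellite cell and myogenic genes 6 (0.02), and 0 passed. Pecam1, an endothelial adhesion protein, measured 100.2, 85.8 and 78.1 CPM on chow and 103, 114 and 99.2 CPM on HFD (0.26 ± 0.10). Fibre-type genes did not follow diet. Of 13 fast fibre genes 7 lay above 0 (median 0.01), and of 10 slow fibre genes 7 (median 0.06), whose level ran from -0.58 in chow replicate 3 to 0.35 in HFD replicate 2. Casq2, the slow and cardiac calsequestrin, measured 86.02, 42.1 and 31.5 CPM on chow and 56.9, 80.5 and 66.6 CPM on HFD (0.46 ± 0.29).

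The high values of stress genes came from HFD replicate 2. Atf3, a stress-induced transcription factor, measured 8.8003, 28.04 and 3.66 CPM on chow and 22.1, 245 and 7.89 CPM on HFD (1.75 ± 0.90 (SE), adjusted p = 0.555), and the inducible heat shock gene Hspa1b 3.96, 6.89 and 1.28 CPM on chow and 5.601, 92.4 and 3.01 CPM on HFD (1.60 ± 0.76 (SE), adjusted p = 0.528). Hspa1b and Hspa1a are near-identical copies whose reads could be divided between them in unknown ways. The level of the 16 heat shock genes was 0.845 in HFD replicate 2 and between -0.53 and 0.08 in the other 5 libraries, and that of the 23 immediate early genes was 0.75 and between -0.46 and 0.11. Without HFD replicate 2 the median of the heat shock list was 0.02 and that of the immediate early list -0.16. TTCNNGAA, the core of the heat shock element, was in 4 of 12 heat shock promoters (33.3%) and in 8.46% of all, on either strand. Of the 23 immediate early genes 16 lay above 0 (median 0.14), of the 16 heat shock genes 13 (0.18), of 16 integrated stress response genes 10 (0.08), of 20 antioxidant genes 13 (0.07) and of 19 interferon-induced genes 15 (0.16), and 0 passed.

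The remaining lists had medians close to the genome-wide median. The clock list holds activators and repressors, and its fold changes ran from -0.69 in Arntl to 0.52 in Per2. Its median therefore does not describe the single genes. Of 19 atrophy and denervation genes 14 lay above 0 (median 0.09), of 25 proteasome genes 17 (0.03), of 19 cytosolic ribosome genes 10 (0.05), of 19 clock genes 11 (0.08) and of 17 glucocorticoid-responsive genes 10 (0.06), and 0 passed. Trim63, a ubiquitin ligase of muscle breakdown, measured 214, 241 and 323 CPM on chow and 325, 316 and 274 CPM on HFD (0.25 ± 0.15). The NR4A receptors, the family the series is about, did not pass either. Nr4a2, which encodes NURR1, measured 1.66, 1.11 and 1.54 CPM on chow and 1.59, 1.49 and 1.07 CPM on HFD (-0.03 ± 0.27 (SE), adjusted p = 0.979). Nr4a1 measured 164, 170.1 and 233 CPM on chow and 209.7, 161 and 122 CPM on HFD (-0.22 ± 0.22 (SE), adjusted p = 0.786), and Nr4a3 2.93, 3.34 and 1.99 CPM on chow and 6.85, 6.47 and 1.404 CPM on HFD (0.49 ± 0.38 (SE), adjusted p = 0.697), with HFD replicate 3 below the chow libraries.

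Several genes outside these lists came close to the threshold with groups that did not overlap. The part of adipocyte content in their values was not tested. Gab2, an adaptor of growth factor receptors, measured 13.1, 12.4 and 12.1 CPM on chow and 17.6, 18.5 and 17.3 CPM on HFD (0.48 ± 0.09 (SE), adjusted p = 0.06903). Prkar2b, a regulatory subunit of protein kinase A, measured 4.12, 2.09 and 3.15 CPM on chow and 7.68, 8.55 and 11.2 CPM on HFD (1.31 ± 0.26 (SE), adjusted p = 0.0914). Mest, an imprinted gene known to follow adipose tissue expansion, measured 2.46, 3.2004 and 1.798 CPM on chow and 6.57, 7.304 and 10.9 CPM on HFD (1.40 ± 0.29 (SE), adjusted p = 0.0967), and Npr3, the clearance receptor of natriuretic peptides, 14.6, 11.3 and 5.84 CPM on chow and 20.1, 32.7 and 32.6 CPM on HFD (1.40 ± 0.29 (SE), adjusted p = 0.101). Among genes lower on HFD, Bcl6, a transcriptional repressor, measured 149, 145 and 125 CPM on chow and 72.96, 56.3 and 106 CPM on HFD (-0.87 ± 0.19 (SE), adjusted p = 0.121). Rasd2, a small GTPase, measured 93.9, 84.6 and 111 CPM on chow and 61.8, 52.7 and 72.1 CPM on HFD (-0.63 ± 0.15 (SE), adjusted p = 0.165), and Gypc, glycophorin C of the red cell membrane, 45.5, 44.9 and 47.3 CPM on chow and 33.3, 25.6 and 35.4 CPM on HFD (-0.54 ± 0.11 (SE), adjusted p = 0.0914). Thnsl2, related to bacterial threonine synthase, measured 10.4, 11.5 and 12.2 CPM on chow and 7.399, 7.802 and 7.22 CPM on HFD (-0.54 ± 0.11 (SE), adjusted p = 0.0901). Without chow replicate 1, Gab2 passed at 0.51 (adjusted p = 0.0338), Prkar2b at 1.49 (adjusted p = 0.0248), Npr3 at 1.65 (adjusted p = 0.0167) and Thnsl2 at -0.60 (adjusted p = 0.03205) in the limma test, and the other 4 of these 8 genes did not pass.

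The number of called genes depended on which library was present. It was 0 without chow replicate 2, without chow replicate 3 or without HFD replicate 2, with 1104, 1097 and 780 genes at an unadjusted p under 0.05. edgeR on the recovered reads called 5 genes and DESeq2 called 47 (0.375%), with 40 higher and 7 lower on HFD, and the 6 genes of the limma test were among the 47.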

How the data were processed

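Muscle RNA was sequenced single-end at 50 bases according to the labels. The authors deposited 1 table of 12558 gene symbols with columns named CPM. TopHat2 2.0.12, edgeR and the builds GRCm38 and mm10 are named per the submitters' processing notes, while counting tool, annotation and strand use are not given. The deposited values are a scaled signal rather than plain CPM: the 6 compared columns sum to between 929993 and 1035816, and each value equals whole reads multiplied by its library's factor (100% within 1e-06 reads). The design assumed plain CPM, and its log-scale test was kept.

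Diet was tested with limma 3.58.1 under R 4.3.3 (eBayes with trend, two-sided) on log2(CPM + 1), all 6 groups sharing a fit of 12 residual degrees of freedom. Tested genes reached 1 CPM in 3 or more of the 18 libraries, and Benjamini-Hochberg adjustment ran over all of them (threshold 0.05). Fold changes on this scale understate the change of low genes. The members and the 42 gene lists were chosen with earlier results of these data known. Genes named were those past the threshold, the 12 each way with the smallest p among others without overlap and with a higher mean of at least 2 CPM, up to 4 per list by p, the Nr4a genes, and up to 12 each way past the threshold without chow replicate 1, of which a selection is printed. Further list members are named for their place in a pathway. A single gene that is counted with its list is not reported here. Alternatives were the count tests of edgeR 4.0.16 and DESeq2 1.42.0 on recovered reads, other pseudocounts (0.25 and 4), filters, scalings and variance models, a GC correction (loess, span 0.3), a replicate block and leaving out each library. On simulated reads of the diet comparison (12453 genes tested, 200 changed), 53.4% of 1.5-fold, 90.1% of 2-fold and 98.6% of 4-fold changes were recovered with 4 false calls. In the simulation genes varied independently, each with the same spread in all 6 groups. No 2 libraries of a group agreed within sampling noise (chi-square per degree of freedom at least 4.23). The groups differed in this value, at 4.23 to 6.29 in HFD with AQ, 13.1 to 39.6 in untreated chow and 20.1 to 21.9 in untreated HFD. Symbols were matched to GENCODE M21, 12026 directly and 465 through older symbols. Floors of 3 reads cover counting error only.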

Additional observations from a re-analysis of the deposited data

Results flagged for a closer look

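The diet effect of 8 named genes differed between untreated and AQ-treated mice by the test of that difference. Most of them were named by their p-values in the untreated pair. The same untreated values enter the test of the difference, so that choice favours finding one. In 1500017E21Rik, the log2 fold change of HFD against chow with AQ minus that without was -1.13 ± 0.16 (SE; limma adjusted p = 0.00786). In Tmem45b it was -1.98 ± 0.38 (SE; limma adjusted p = 0.0287), and in the desaturase gene Scd1 -1.68 ± 0.29 (SE; limma adjusted p = 0.0223). The complement gene C4b had a difference of -1.94 ± 0.36 (SE; limma adjusted p = 0.0253), with 9.38 ± 2.29 CPM (SD, n = 3) on chow and 20.2 ± 5.2003 CPM on HFD without AQ, and 16.1 ± 0.664 CPM and 8.26 ± 2.42 CPM with AQ. The glucose transporter gene Slc2a1 had a difference of -0.99 ± 0.20 (SE; limma adjusted p = 0.0349) and the haem oxygenase gene Hmox1 of -0.97 ± 0.20 (SE; limma adjusted p = 0.0353). Fbn1, which was picked after its values were seen, had a difference of -1.68 ± 0.29 (SE; limma adjusted p = 0.0232). In these 7 genes the untreated fold change was above 0 and the AQ-treated one below 0. Rasl11b, a small GTPase gene, went the other way, with a difference of 0.91 ± 0.17 (SE; limma adjusted p = 0.0287), 5.86 ± 0.273 CPM on chow and 3.49 ± 0.225 CPM on HFD without AQ, and 3.21 ± 0.444 CPM and 4.17 ± 0.409 CPM with AQ. Over all genes tested, 89 (0.711%) differed in this way.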

How the results depend on the processing

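The 6 called genes kept their direction under all 18 alternatives, but not their side of the threshold: Tmem45b passed in 14, 1500017E21Rik in 13, Plet1os in 11, Ech1 in 10, Dbi in 9 and Decr1 in 8. The count of called genes was 3 with scaling to the library total, 2 without the variance trend, 2 with only the groups compared and 47 with DESeq2 on the recovered reads. Of the 2 called with only the groups compared, 1 was among the 6. Leaving out 1 library gave between 0 and 40 genes. Same-numbered libraries of the 2 diets deviated together in 1 pair of 3 (correlations of -0.05, 0.07 and 0.31). These values cannot show whether equal numbers mark a pairing, because deviations from a mean of 3 libraries cancel within the group. With a replicate block 0 genes passed (949 at an unadjusted p under 0.05). The count of genes whose diet effect differed with AQ, 89, was 32 with scaling to the library total, 31 without the trend, 229 with DESeq2, 18 after removal of the GC trend, 45 with the replicate block and between 22 and 103 when 1 library was left out. The cause was not tested. List medians moved by more than the spread in 17 of 756 values. Among 82 named genes the sign turned in 11 of 1474 values, none of a called gene. Ppargc1a turned to 0.0465 with edgeR and 0.0496 with DESeq2 and ran from -0.38 to 0.34 over fits that left out 1 library. Over those fits Lpl ran from -0.30 to 0.15, Decr2 from -0.0026 to 0.23, Fbn1 from -0.12 to 0.35 and Nr4a2 from -0.13 to 0.066. With 3 libraries a group, simulated 1.5-fold changes were recovered in 53.4% of cases, so smaller changes such as those of the respiratory chain could go uncalled.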
